A study of Homo sapiens and Mus musculus with 12 samples.

Results

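RNA sequencing (RNA-seq) of 2 breast cancer cell lines was read for 9 genes: the prostaglandin synthesis genes *PTGS1*, *PTGS2*, *PTGES*, *PTGES2*, *PTGES3* and *PLA2G4A*, the prostaglandin-degrading gene *HPGD*, and the receptor genes *PTGER2* and *PTGER4*, with the mouse genes of the same symbols. All 9 symbols were found in both species, among 63677 human and 47729 mouse gene identifiers. The genes were chosen from a pathway in which *Ptgs2* was already known to be abundant and strongly lower with ponatinib in these 4T1 libraries, so the 4T1 contrast of the members is described below without a test. MDA-MB-231, a human triple-negative breast cancer (TNBC) line, and 4T1, a mouse mammary carcinoma line, both without genetic modification, were cultured in DMEM with fetal bovine serum. Each was exposed for 24 h to 1 µmol/L ponatinib, which inhibits several tyrosine kinases, or to DMSO, its solvent, giving 4 groups of 3 libraries and 12 libraries in all. Each line is a single established line grown alone in a dish, so the data hold no stromal or immune cells of a tumor. The labels do not say whether the 3 libraries of a group came from separate cultures, so the p-values measure only the spread between these libraries, which may be technical.

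Prostaglandins are lipid signals made from arachidonic acid. The cytosolic phospholipase A2 encoded by *PLA2G4A* frees arachidonic acid from membranes, the cyclooxygenases COX-1 (*PTGS1*) and COX-2 (*PTGS2*) turn it into prostaglandin H2, and prostaglandin E synthases (*PTGES*, *PTGES2*, *PTGES3*) make prostaglandin E2 (PGE2) from that intermediate. PGE2 acts through receptors of the EP family, of which EP2 (*PTGER2*) and EP4 (*PTGER4*) raise cyclic AMP, and it is inactivated by the dehydrogenase encoded by *HPGD*. COX-2 is the inducible enzyme of the pathway and is known for its expression in many breast tumors, where PGE2 promotes growth and dampens immune responses. These data measure mRNA, and hold no measurement of enzyme or PGE2.

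Total counts ranged from 15012884 to 17301760 per MDA-MB-231 library and from 17800675 to 18951493 per 4T1 library. Levels are in CPM, counts divided by library size after TMM, a normalization of library composition, and are given as mean ± SD of n = 3, and fold changes are log2 values of ponatinib over DMSO with their standard error (SE). Calls use edgeR's quasi-likelihood test with a Benjamini-Hochberg adjustment over every gene tested in a line and a threshold of 0.05. By that rule 26.8% of the 14610 genes tested in MDA-MB-231 were lower and 27.2% were higher with ponatinib. Of 13286 genes tested in 4T1, 29.4% fell and 29.5% rose, so a call by itself is common in both lines. Scaling to total counts instead of TMM moved the median gene up, to a log2 fold change of 0.11 for MDA-MB-231 and 0.12 for 4T1, and in 4T1 changed the split of calls from 3909 lower and 3925 higher to 2935 lower and 4854 higher. Changes below are relative to the typical gene as set by TMM. The leukocyte markers *PTPRC*, *CD3E* and *ITGAM* were at or near 0 in both lines, with group means of at most 0.111 CPM for *Ptprc*. A further leukocyte marker, *Cd14*, stood at 237 ± 13.3 CPM with DMSO and 144 ± 9.68 CPM with ponatinib in 4T1, so these leukocyte markers summed there to 223 to 249 CPM with DMSO and 137 to 155 CPM with ponatinib. *CDH1*, the epithelial cadherin, was near 0 in MDA-MB-231 and at 830 ± 57.7 CPM in 4T1 with DMSO. The other epithelial markers listed were present in MDA-MB-231 with DMSO. There *KRT8* stood at 890 CPM, *KRT19* at 737, *KRT18* at 117 and *EPCAM* at 6.44. In 4T1 with DMSO *Krt18* stood at 3246 CPM, *Krt8* at 2389, *Krt19* at 2040 and *Epcam* at 2.86. The hormone receptor genes *ESR1* and *PGR*, which TNBC lacks by definition, had group means of at most 0.643 CPM in MDA-MB-231, and *Esr1* reached 6.33 CPM in 4T1 with ponatinib. *ERBB2*, the gene of HER2, stood at 98.1 CPM with DMSO and 172 CPM with ponatinib in MDA-MB-231, and at 91.9 and 95.4 CPM in 4T1. *COL1A1*, listed as a fibroblast marker, stood at 27.8 CPM with DMSO and 74.9 CPM with ponatinib in MDA-MB-231. *PDGFRA*, *PECAM1* and *VWF* had group means of at most 0.496 CPM there.

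*PTGS2* was the member with the most negative fold change in both lines. In MDA-MB-231 it stood at 37.3, 44.6 and 43.4 CPM in the DMSO libraries and at 3.03, 4.71 and 3.67 CPM in the ponatinib libraries. All 3 ponatinib libraries lay far below all 3 DMSO libraries, and the gene fell from a mean of 41.8 ± 3.90 to 3.80 ± 0.85 CPM, a 10.98-fold difference (log2 fold change -3.46, SE 0.15; edgeR, adjusted p = 1.5e-08). In 4T1 the gene was among the abundant transcripts, at 1115, 1097 and 1070 CPM with DMSO, and at 163, 142 and 136 CPM with ponatinib. The means of 1094 ± 22.5 and 147 ± 14.1 CPM differ by 7.45-fold (log2 fold change -2.90, SE 0.09). A lower fold change was seen for 0.13% of the genes tested in MDA-MB-231 and 0.542% of those in 4T1. The abundance and fall of *Ptgs2* in 4T1 were part of the choice of genes. Its 4T1 share and ranks are therefore descriptions and do not measure how unusual the gene is. Corrected for exon length, *Ptgs2* ranked 161st among 13161 4T1 genes with DMSO and 1412th with ponatinib, while *PTGS2* in MDA-MB-231 ranked 4910th and 11756th among 14203 genes. In bulk libraries, fewer cells that express a gene and less RNA per cell cannot be told apart.

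**Figure D1:**
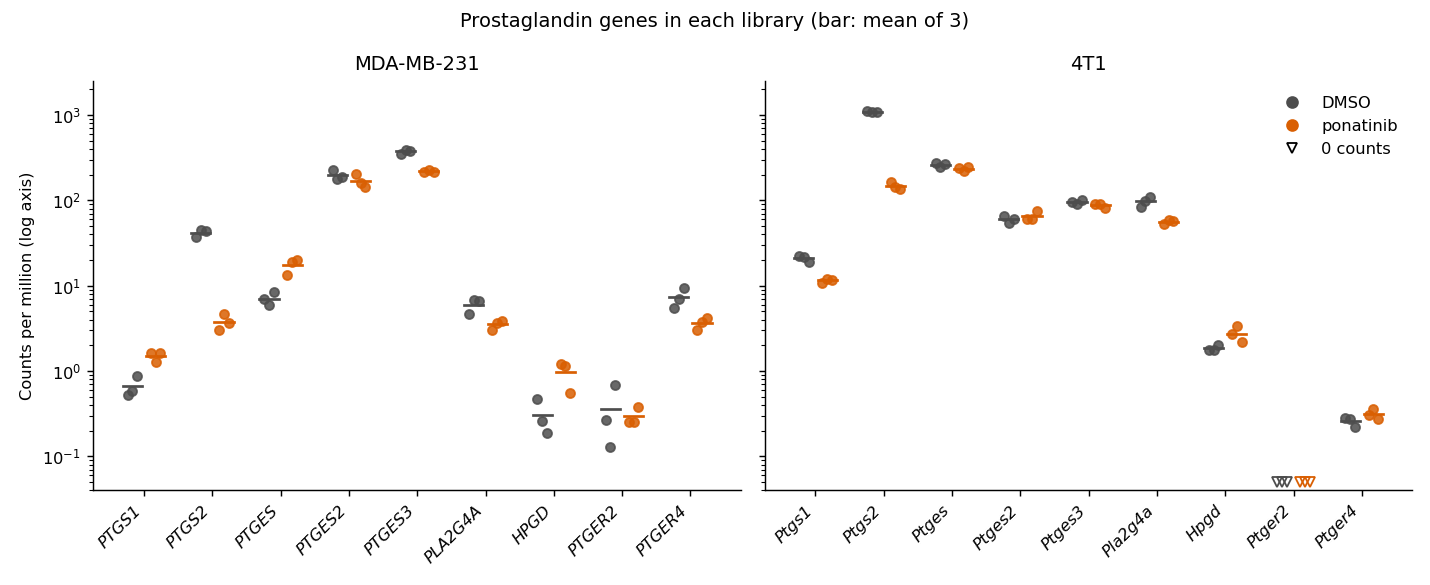
CPM (log axis) of the 9 genes in each of the 12 libraries, with DMSO in grey and ponatinib in orange. Points are libraries, bars are means of 3, and open triangles mark 0 counts. *PTGS2* separates by treatment in both lines, at 37.3 to 44.6 against 3.03 to 4.71 CPM in MDA-MB-231 and at 1070 to 1115 against 136 to 163 CPM in 4T1.

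The sequence before the human *PTGS2* start is shown because this promoter is a known target of the factors listed next, and beside it those of *PTGES*, which moved the opposite way in MDA-MB-231, and of the neighboring *PLA2G4A*. Stretches are the 250 bases before the start in RefSeq (GRCh38.p14), 5′ to 3′ on the gene's strand. *PTGS2* lies on the minus strand and its stretch is chr1:186680424-186680673. *PTGES* is also on the minus strand, at chr9:129753043-129753292, and *PLA2G4A* is on the plus strand, at chr1:186828699-186828948. Capitals mark letters of any of the motifs listed next.
PTGS2: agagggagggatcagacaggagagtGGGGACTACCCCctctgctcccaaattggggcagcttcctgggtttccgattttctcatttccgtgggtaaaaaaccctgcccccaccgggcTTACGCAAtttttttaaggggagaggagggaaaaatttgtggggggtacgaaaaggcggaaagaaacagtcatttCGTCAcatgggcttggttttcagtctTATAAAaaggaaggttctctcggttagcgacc
PTGES: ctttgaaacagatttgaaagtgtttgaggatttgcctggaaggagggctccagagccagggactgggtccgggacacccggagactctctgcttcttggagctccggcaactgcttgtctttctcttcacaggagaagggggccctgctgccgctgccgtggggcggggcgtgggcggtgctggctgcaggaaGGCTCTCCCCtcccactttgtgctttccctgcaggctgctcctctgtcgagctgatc
PLA2G4A: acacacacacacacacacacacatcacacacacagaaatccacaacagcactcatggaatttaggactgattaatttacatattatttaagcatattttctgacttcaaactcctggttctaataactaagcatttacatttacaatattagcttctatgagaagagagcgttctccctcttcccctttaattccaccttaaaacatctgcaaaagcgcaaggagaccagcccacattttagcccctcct

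The spellings searched, on both strands, were TGACGTCA for the cyclic AMP response element (CRE) and TGACG for its core, TGANTCA for AP-1, TTNNGNAA for C/EBP, CACGTG for the E-box, TTCNNNGAA for STAT, TATAAA for the TATA box, and for κB a run of 3 G, any 5 bases and a pair of C. Every full CRE also counts as a core, and a palindromic κB, C/EBP, E-box or STAT match counts on both strands. The *PTGS2* stretch held κB letters (4 overlapping matches between bases 225 and 214 before the start), C/EBP letters at bases 133 to 126, the CRE core at bases 58 to 54 and TATA at bases 32 to 27. Of 35116 human stretches of that length, 54.4% held the κB spelling, 33.2% C/EBP, 21.2% the CRE core and 10.7% TATA. *PTGES* held 1 κB match, at bases 57 to 48, and the *PLA2G4A* stretch held none of the spellings, which says only that these letters are not in this window.

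The mouse *Ptgs2* start is less settled in the annotation: GENCODE vM39 places the start of its canonical transcript 487 bases before the start codon, against 133 bases for human *PTGS2*, and an exon of another transcript begins 126 bases before that codon, on chromosome 1 at position 149975849 of GRCm39. The 250 bases before this exon aligned to the human stretch with 65.8% identity over 263 columns. This exon and the matches shown for it were chosen after the sequences were seen. Each is shown in 30 bases, on the plus strand, at chr1:149975437-149975466, chr1:149975702-149975731 and chr1:149975785-149975814.
Ptgs2 κB: ggagaggtgaGGGGATTCCCttagttagga
Ptgs2 C/EBP: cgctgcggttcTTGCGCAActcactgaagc
Ptgs2 CRE core and E-box: gtcaccactaCGTCACGTGgagtccgcttt

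Counted from that exon, the mouse κB letters shown lie at bases 402 to 393, beyond the aligned stretch, and 2 further κB matches lie within it, at bases 90 to 81 and 18 to 9. The C/EBP letters shown lie at 136 to 129, close to the human 133 to 126, with another match at 92 to 85, and the CRE core with the overlapping E-box lies at 54 to 46, close to the human CRE core at 58 to 54. Of 21770 mouse stretches before canonical starts, 47.8% held the κB spelling, 36.9% C/EBP, 18.0% the CRE core and 6.26% the E-box. A match of letters is a description and does not show that a factor was bound in these cells.

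**Figure D2:**
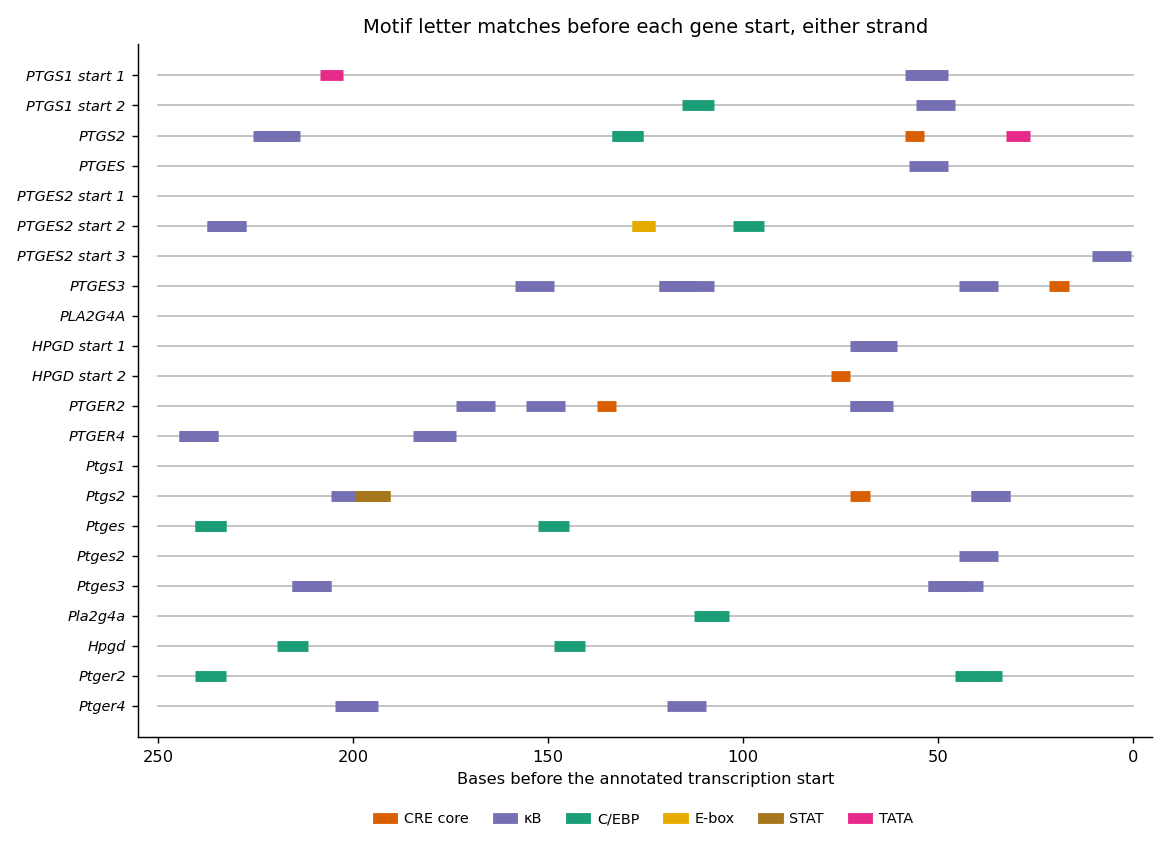
Positions of motif letters (either strand) in the 250 bases before each annotated start, in bases before the start, with 1 line for each start and overlapping matches drawn on top of each other. Human *PTGS2* holds κB, C/EBP, CRE core and TATA letters, and the mouse *Ptgs2* line is drawn from the GENCODE canonical start, not from the later exon.

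*PTGS1*, which encodes the constitutive cyclooxygenase, moved in opposite directions. It was scarce in MDA-MB-231, with 8, 9 and 14 counts in the DMSO libraries and 26, 20 and 30 in the ponatinib libraries, or 0.66 ± 0.19 and 1.52 ± 0.21 CPM. All ponatinib libraries lay above all DMSO libraries, and the gene rose by a log2 fold change of 1.18 (SE 0.33; edgeR, adjusted p = 0.0104). A minimum of 10 counts in every library removed it from the test. In 4T1 *Ptgs1* stood at 22.2, 21.5 and 18.9 CPM with DMSO and at 10.7, 12.1 and 11.8 CPM with ponatinib. The groups did not overlap, and the log2 fold change was -0.86 (SE 0.12). In a joint fit of both lines with its own TMM, the difference between the lines, 4T1 minus MDA-MB-231, was -2.11 (SE 0.30) and was not tested. Such a difference can depart slightly from the subtraction of the fold changes fitted in each line.

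The balance of the cyclooxygenases was compared per kilobase of exon within each library. In MDA-MB-231 the *PTGS2* level was 74.2, 80.7 and 52.0 times that of *PTGS1* in the DMSO libraries and 1.95, 3.90 and 2.36 times with ponatinib. In 4T1 it was 38.1, 38.8 and 42.9 times with DMSO and 11.6, 8.91 and 8.77 times with ponatinib. *PTGS2* thus stayed above *PTGS1* in all 12 libraries, and the groups did not overlap in either line, with mean ratios of 69.0 ± 15.1 and 2.74 ± 1.03 in MDA-MB-231 and of 40.0 ± 2.58 and 9.75 ± 1.57 in 4T1. The MDA-MB-231 ratios rest on 31 *PTGS1* counts with DMSO and 76 with ponatinib. The 4T1 ratios contain the fall of *Ptgs2* that was part of the choice of genes, and are descriptions only.

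*PLA2G4A*, which supplies the arachidonic acid, was lower by nearly the same fold in both lines. In MDA-MB-231 it stood at 4.64, 6.73 and 6.67 CPM with DMSO and 3.03, 3.70 and 3.83 CPM with ponatinib, and fell by 0.77 on the log2 scale (SE 0.20; edgeR, adjusted p = 0.00641). In 4T1 it stood at 83.5, 99.3 and 110 CPM with DMSO and 52.1, 59.5 and 57.0 CPM with ponatinib, a log2 fold change of -0.79 (SE 0.10). No ponatinib library reached a DMSO library in either line, and the difference between the lines was -0.10 (SE 0.22), less than its error.

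*PLA2G4A* and *PTGS2* are neighbors in both genomes, on opposite strands of chromosome 1, with 148 kb between them in human, 138 kb in mouse and 0 protein-coding genes in the gap. The other genes within 500 kb of *PTGS2* did not share one direction. In MDA-MB-231 *HMCN1*, a matrix protein gene, rose from 1.05 ± 0.23 to 3.22 ± 0.53 CPM (log2 fold change 1.60, SE 0.27; edgeR, adjusted p = 0.000366), while the nuclear pore gene *TPR* (-0.03, adjusted p = 0.784) and *ODR4* (-0.13, adjusted p = 0.346) were not called. In 4T1 *Odr4* rose from 29.98 ± 4.37 to 43.1 ± 4.26 CPM (0.52, SE 0.11; edgeR, adjusted p = 0.00109) and *Tpr* fell from 268 ± 11.5 to 198 ± 6.39 CPM (-0.44, SE 0.07; edgeR, adjusted p = 9.89e-05). *PRG4* and *PDC* in both lines, and *Hmcn1* in 4T1, had too few counts to test.

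The 3 genes named for PGE synthases did not move together. *PTGES* encodes the microsomal synthase that is inducible and works with COX-2, *PTGES2* a second microsomal synthase, and *PTGES3* the cytosolic synthase, better known as p23, a co-chaperone of HSP90. *PTGES* rose in MDA-MB-231, from 6.90, 5.89 and 8.37 CPM with DMSO to 13.4, 19.1 and 19.9 CPM with ponatinib. Every ponatinib library was above every DMSO library (log2 fold change 1.31, SE 0.18; edgeR, adjusted p = 7.86e-05). In 4T1 *Ptges* was far more abundant, at 277, 243 and 264 CPM with DMSO and 239, 221 and 246 CPM with ponatinib. The groups overlapped, although the ponatinib library was the lower one at each replicate number, and the log2 fold change was -0.15 (SE 0.08).

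*PTGES3* fell in MDA-MB-231, from 353, 388 and 381 CPM with DMSO to 217, 227 and 216 CPM with ponatinib (log2 fold change -0.77, SE 0.07; edgeR, adjusted p = 4.85e-06). In 4T1 *Ptges3* stood at 95.8, 91.1 and 101 CPM with DMSO and 90.1, 91.3 and 80.7 CPM with ponatinib, with overlapping groups and a log2 fold change of -0.13 (SE 0.08). Its reads can be shared with processed copies: 1 annotated mouse pseudogene held 3326 counts beside 10193 in *Ptges3* over the 6 libraries, and 5 human ones held 184 beside 28329 in *PTGES3*, so the 4T1 level is uncertain.

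*PTGES2* was not called in MDA-MB-231, at 228, 178 and 185 CPM with DMSO and 203, 158 and 142 CPM with ponatinib (log2 fold change -0.23, SE 0.13; edgeR, adjusted p = 0.155). Replicate 1 was the highest library of both groups, and with the replicate number as a block the fall passed the test (-0.24, adjusted p = 0.000106), as it did without ponatinib replicate 1 (-0.39, adjusted p = 0.00357). In 4T1 *Ptges2* stood at 65.8, 54.5 and 60.6 CPM with DMSO and 60.9, 60.3 and 74.9 CPM with ponatinib, which overlap (log2 fold change 0.12, SE 0.10). The differences between the lines, 4T1 minus MDA-MB-231, were -1.54 (SE 0.18) for *PTGES*, 0.56 (SE 0.11) for *PTGES3* and 0.28 (SE 0.18) for *PTGES2*.

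Per kilobase, *PTGES* was 0.493 ± 0.0956 times the *PTGS2* level in MDA-MB-231 with DMSO and 13.5 ± 2.06 times it with ponatinib. In 4T1 the same ratio was 0.278 ± 0.0174 with DMSO and 1.87 ± 0.204 with ponatinib. *PTGES* was thus below *PTGS2* in all 6 DMSO libraries and above it in all 6 ponatinib libraries. In 4T1 the *Ptges* groups overlapped and the fall of *Ptgs2* was part of the choice of genes, so its 4T1 ratio is a description only. *PTGES* over *PTGES2* was 0.116 ± 0.0253 and 0.351 ± 0.124 in MDA-MB-231, without overlap, and 6.74 ± 0.192 and 5.62 ± 0.503 in 4T1. *PTGES* over *PTGES3* was 0.0340 ± 0.0062 and 0.143 ± 0.0282 in MDA-MB-231, and overlapped between the groups in 4T1 at 1.38 ± 0.0742 and 1.37 ± 0.159.

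**Figure D3:**
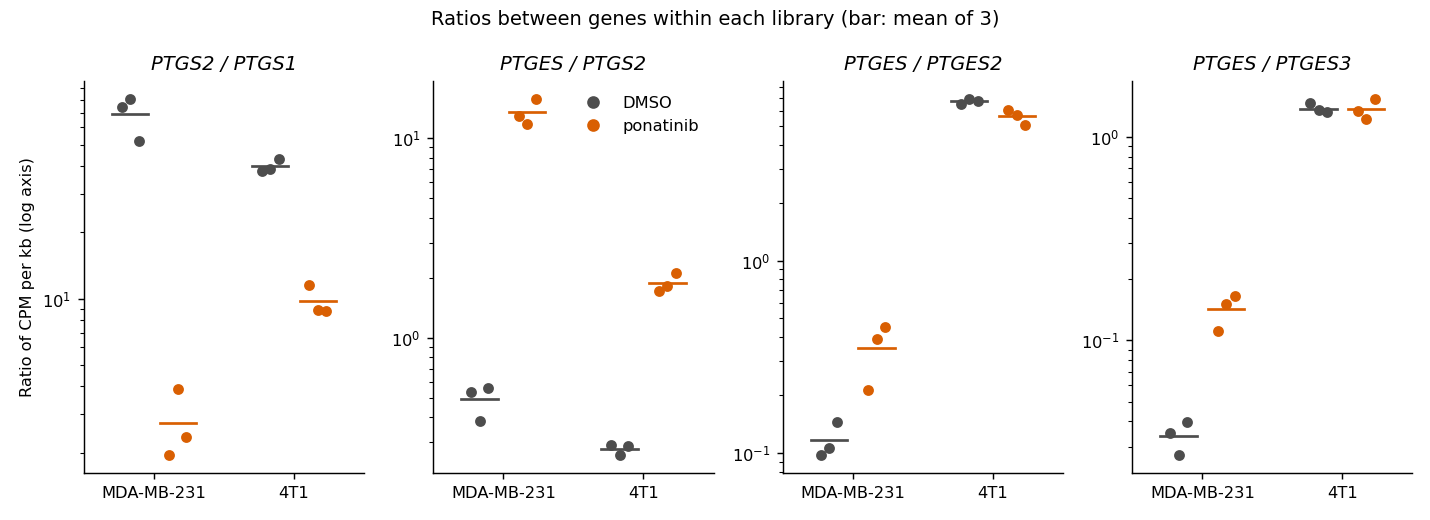
Ratios of CPM per kilobase of exon between pairs of genes, on log axes, in each library (points) with the mean of 3 (bars), DMSO in grey and ponatinib in orange. *PTGES* over *PTGS2* is at most 0.559 in the DMSO libraries and at least 1.71 in the ponatinib libraries.

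Of the receptor and catabolic genes, *PTGER4* in MDA-MB-231 and *Hpgd* in 4T1 passed the filter on low counts. *PTGER4* was detected in MDA-MB-231 at 5.44, 7.06 and 9.37 CPM with DMSO and 3.03, 3.76 and 4.16 CPM with ponatinib, and fell by 0.99 on the log2 scale (SE 0.22; edgeR, adjusted p = 0.00248) without overlap. It lies inside *TTC33* on the opposite strand, whose counts were 335 in the DMSO libraries and 364 in the ponatinib libraries, and the strand setting of the counting is not given. *PTGER2* held 17 counts with DMSO and 15 with ponatinib in MDA-MB-231, too few to test, a ratio of 0.822 (95% Clopper-Pearson interval 0.382 to 1.75, counting error only). In 4T1 *Ptger2* had 0 counts in all 6 libraries, which allows up to 0.0556 CPM over the DMSO libraries and 0.0523 CPM over the ponatinib libraries, taking 3 counts as the floor. *Ptger4* held 14 and 18 counts, a ratio of 1.21 (0.568 to 2.63). A change of either EP receptor was not detectable in 4T1 at this depth.

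*HPGD*, whose product inactivates PGE2, had 7, 4 and 3 counts with DMSO and 19, 18 and 10 with ponatinib in MDA-MB-231. The groups did not overlap and the ratio was 3.13 (95% Clopper-Pearson interval 1.69 to 6.15, counting error only), but the gene did not pass the filter on low counts. In 4T1 *Hpgd* stood at 1.76, 1.78 and 2.02 CPM with DMSO and 2.71, 3.36 and 2.17 CPM with ponatinib, a log2 fold change of 0.57 (SE 0.25) without overlap.

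Of the 9 genes, 7 passed the filter in MDA-MB-231. Of these 4 were lower (*PTGS2*, *PTGES3*, *PLA2G4A*, *PTGER4*), 2 were higher (*PTGS1*, *PTGES*) and 1 was not called. Over all genes tested in that line, 26.8% were lower and 27.2% were higher. The median log2 fold change of the 7 was -0.77 beside 0.02 over all tested genes. Of the mouse genes, 7 passed. Ponatinib libraries of 4T1 lay below all DMSO libraries for *Ptgs2*, *Ptgs1* and *Pla2g4a* and above them for *Hpgd*, and the groups overlapped for *Ptges*, *Ptges2* and *Ptges3*, with a median log2 fold change of -0.15 beside -0.00014 over all tested genes. These values come from the contrast behind the choice of genes, and nothing is read from them. The share of all genes whose groups do not overlap is not given here for either line, so a lack of overlap is a description only. The genes that passed a filter on counts are not all 9 members. Summed over the 9 genes, the MDA-MB-231 libraries held 632 to 637 CPM with DMSO and 392 to 446 CPM with ponatinib, and the 4T1 libraries held 1609 to 1661 CPM with DMSO and 590 to 619 CPM with ponatinib. These sums follow the member most abundant with DMSO and do not describe the 9 genes as a set. That member was *PTGES3* in MDA-MB-231, with means of 374 CPM with DMSO and 220 CPM with ponatinib. In 4T1 it was *Ptgs2*, at 1094 and 147 CPM, whose fall was part of the choice of genes.

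**Figure D4:**
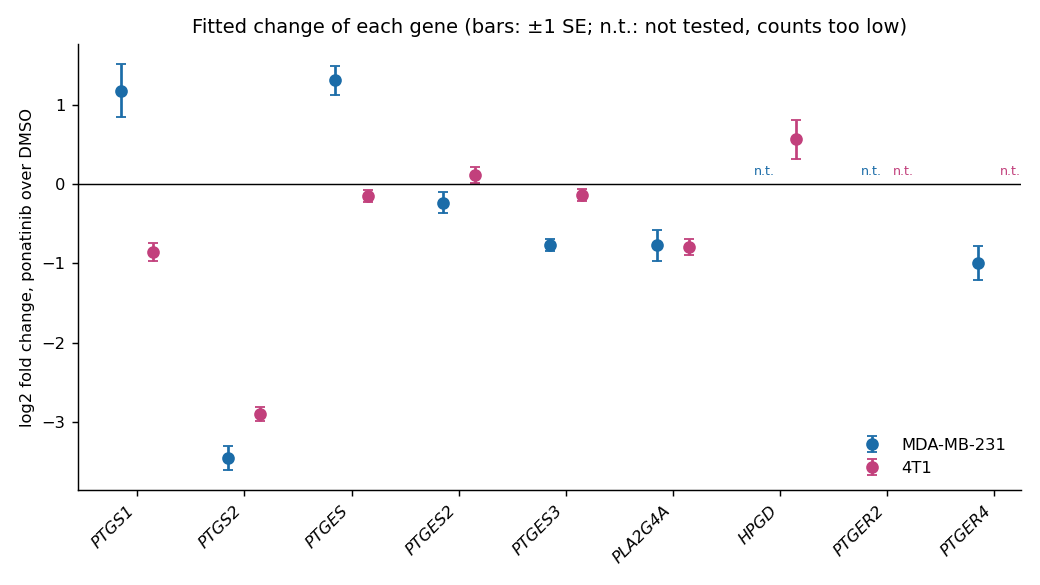
Fitted log2 fold change of ponatinib over DMSO for each gene in MDA-MB-231 (blue) and 4T1 (pink), with bars of 1 SE and n.t. for genes with too few counts to test. *PTGS2* lies at -3.46 and -2.90, *PLA2G4A* at -0.77 and -0.79, and *PTGS1* on opposite sides of 0 at 1.18 and -0.86.

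The lines differed in which genes led the pathway before treatment. Per kilobase of exon with DMSO, the order in MDA-MB-231 was *PTGES3* (110 ± 5.40 CPM per kb), *PTGES2* (32.4 ± 4.40), *PTGS2* (7.62 ± 0.711), *PTGES* (3.73 ± 0.658), *PLA2G4A* (2.09 ± 0.413), *PTGER4* (2.06 ± 0.558), *PTGER2* (0.147 ± 0.119), *PTGS1* (0.115 ± 0.0327) and *HPGD* (0.0550 ± 0.0259). *PLA2G4A* and *PTGER4* did not differ beyond their spread and changed places when the longest transcript was used as the length, and *PTGER2* overlapped with both *PTGS1* and *HPGD*. In 4T1 the order was *Ptgs2* (214 ± 4.40), *Ptges* (59.4 ± 3.88), *Ptges3* (43.1 ± 2.19), *Pla2g4a* (12.99 ± 1.76), *Ptges2* (8.82 ± 0.824), *Ptgs1* (5.36 ± 0.439), *Hpgd* (0.600 ± 0.0478), *Ptger4* (0.0391 ± 0.0054) and *Ptger2* (0 counts), and no neighbors in this order overlapped. With ponatinib *Ptgs2* fell to the third place in 4T1, at 28.7 ± 2.75 CPM per kb, behind *Ptges* (53.4 ± 2.89) and *Ptges3* (39.2 ± 2.61). In MDA-MB-231 *PTGS2* moved from the third to the sixth place, at 0.694 ± 0.155, behind *PTGES* (9.25 ± 1.87), *PLA2G4A* (1.22 ± 0.150) and *PTGER4* (1.03 ± 0.162).

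The genes whose pattern over the 6 libraries of a line was nearest to that of *PTGS2* were taken by the root mean square difference of log2 CPM, each gene centered on its own mean. Among 9494 genes compared in MDA-MB-231 the nearest was *CXCL8*, the neutrophil chemokine, at a difference of 0.0857, falling from 366 ± 40.8 to 34.7 ± 5.68 CPM. *MPP4* (0.210), the ribonucleotide reductase subunit *RRM2* (0.266), and the ETS factors *ETV4* (0.275) and *ETV5* (0.277) followed. Among 9443 genes in 4T1 the nearest were *Aldh1a3* (0.106), a retinaldehyde dehydrogenase, *Fam78b* (0.115), *Csf2* (0.119), the cytokine GM-CSF, *Jun* (0.129) and *Lgr6* (0.138). *Aldh1a3* stood at 101 ± 2.55 and 15.3 ± 1.95 CPM, and *Csf2* at 76.2 ± 5.28 and 9.06 ± 1.16 CPM. These values describe likeness over 6 libraries that share 1 treatment difference.

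The other genes of the pathway, 42 in 5 classes, moved both ways. Of 29 tested in MDA-MB-231, 7 fell, 11 rose and 11 were not called, around a median of 0.10 (log2). Of 20 tested in 4T1, 8 fell, 9 rose and 3 were not called, around a median of 0.08. Over all tested genes 26.8% fell and 27.2% rose in MDA-MB-231, and 29.4% fell and 29.5% rose in 4T1. The counts of each class below stand beside these same shares. The ponatinib effect could be compared in 18 of them, and differed between the lines for 12 (edgeR, interaction of line and treatment, adjusted p under 0.05), against 41.9% of the 12489 genes so tested; 7 had the lower and 5 the higher value in 4T1.

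Among phospholipases and arachidonate supply, 3 of 11 tested genes fell and 4 rose in MDA-MB-231, against 4 and 3 of 9 in 4T1. *PLA2G6*, the calcium-independent phospholipase A2, rose in MDA-MB-231 from 3.36 ± 0.382 to 22.5 ± 2.1 CPM (log2 fold change 2.74, SE 0.14; edgeR, adjusted p = 5.27e-08) and stood at 95.03 ± 9.1 and 89.98 ± 4.39 CPM in 4T1 (-0.08, adjusted p = 0.433), a difference between the lines of -2.89 (SE 0.16, adjusted p = 9.18e-11). *PLAAT3*, a phospholipase and acyltransferase, rose in both, by 0.96 in MDA-MB-231 (101 ± 10.4 to 196 ± 23.3 CPM) and 1.69 in 4T1 (5.50 ± 0.594 to 17.7 ± 1.5 CPM). *ACSL4*, which activates arachidonic acid for storage in phospholipids, fell in both, by 0.68 and 0.78 on the log2 scale, at 63.9 ± 8.75 and 39.8 ± 7.72 CPM in MDA-MB-231 and 202 ± 20.2 and 117 ± 15.1 CPM in 4T1. *PLAA*, a phospholipase A2 activating protein, fell in MDA-MB-231 by 0.77. The diacylglycerol lipases parted in 4T1: *Dagla* fell by 0.73 (77.6 ± 7.18 to 46.9 ± 7.25 CPM) and *Daglb* rose by 0.71 (8.22 ± 1.72 to 13.4 ± 2.04 CPM).

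Among the terminal synthases of other prostanoids, 1 of 4 tested fell and 2 rose in MDA-MB-231, against 1 and 1 of 3 in 4T1. *AKR1B1*, an aldose reductase that also makes prostaglandin F2α, rose in MDA-MB-231 from 201 ± 10.3 to 602 ± 40.1 CPM (log2 fold change 1.58, SE 0.08; edgeR, adjusted p = 4.27e-08) and fell in 4T1 from 204 ± 11.9 to 148 ± 13.6 CPM (-0.46, SE 0.08; edgeR, adjusted p = 0.000211). *CBR1*, a carbonyl reductase that acts on PGE2, went the other way, with -0.32 in MDA-MB-231 (adjusted p = 0.0336) and 0.82 in 4T1 (adjusted p = 1.94e-05). The MDA-MB-231 fall of *CBR1* did not pass the test without any single library other than ponatinib replicate 1 (adjusted p up to 0.144), and the rise of *PRXL2B*, a prostaglandin F synthase, by 0.24 was likewise lost without any single library other than ponatinib replicate 1 (adjusted p up to 0.122). The synthases of prostaglandin D2, prostacyclin and thromboxane were too scarce to test in one line or the other, apart from *TBXAS1* in MDA-MB-231 (-0.39, adjusted p = 0.0927) and *Hpgds* in 4T1 (0.13, adjusted p = 0.724).

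Of 5 transport and breakdown genes, 0 fell and 2 rose in MDA-MB-231, while 3 fell and 2 rose in 4T1. *SLCO2A1*, the prostaglandin uptake transporter, rose in MDA-MB-231 from 0.475 ± 0.108 to 1.53 ± 0.257 CPM (log2 fold change 1.67, SE 0.35; edgeR, adjusted p = 0.0017), whereas the far more abundant *Slco2a1* of 4T1 fell from 266 ± 17.02 to 211 ± 6.39 CPM (-0.33, adjusted p = 0.0014). *Ptgr1*, a prostaglandin reductase, rose in 4T1 from 7.34 ± 0.51 to 23.7 ± 2.004 CPM (1.69, SE 0.12; edgeR, adjusted p = 3.52e-08), with 0.06 in MDA-MB-231 (adjusted p = 0.603). *PTGR2*, which acts on 15-keto-PGE2, rose in both lines, by 0.74 and 0.60. *Abcc4*, an efflux transporter that exports PGE2, fell by 0.44 and the carbonyl reductase *Cbr3* by 1.48 on the log2 scale in 4T1.

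Of the other prostanoid receptors, 4 were measurable in MDA-MB-231 (2 lower, 0 higher) and 2 in 4T1 (0 lower, 2 higher). *Ptger1*, which encodes the calcium-coupled receptor EP1, was the measurable EP receptor of 4T1 and rose from 27.5 ± 2.51 to 51.9 ± 2.995 CPM (0.91, SE 0.09; edgeR, adjusted p = 1.34e-06). *PTGFRN*, a regulator of the prostaglandin F receptor, fell by 0.45 in MDA-MB-231 and rose by 0.35 in 4T1. Among the lipoxygenase and leukotriene genes, 1 of 5 tested was lower and 3 higher in MDA-MB-231. *ALOX12* rose there from 0.841 ± 0.349 to 4.32 ± 1.13 CPM (2.34, SE 0.33; edgeR, adjusted p = 0.000107), and *ALOX5AP*, which presents arachidonic acid to 5-lipoxygenase, fell from 3.72 ± 0.806 to 1.28 ± 0.0853 CPM (-1.53, SE 0.25; edgeR, adjusted p = 0.00033). The 5-lipoxygenase gene *ALOX5* itself was called higher, on 3 counts with DMSO and 47 with ponatinib (3.72, SE 0.58, edgeR, adjusted p = 0.000227). It stayed under 1 CPM in both groups. *LTA4H*, the leukotriene A4 hydrolase, rose in MDA-MB-231 by 0.51 and in 4T1, where it was the 1 gene of its class that could be tested, by 0.29.

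Genes known to act on *PTGS2* transcription or mRNA decay were listed as 16 genes, all tested in both lines. In MDA-MB-231, 8 of them fell, 2 rose and 6 were not called, and in 4T1, 9 fell, 2 rose and 5 were not called, around medians of -0.18 and -0.34. Over all tested genes 26.8% fell and 27.2% rose in MDA-MB-231, and 29.4% fell and 29.5% rose in 4T1. The AP-1 genes *JUN* and *FOSL1* and the immediate-early factor *EGR1* fell in both lines. *JUN* fell from 576 ± 20.4 to 199.6 ± 2.002 CPM in MDA-MB-231 (-1.53, SE 0.07; edgeR, adjusted p = 2.12e-08) and from 161 ± 6.05 to 18.1 ± 1.6 CPM in 4T1 (-3.16, SE 0.09; edgeR, adjusted p = 7.42e-12). *FOSL1* fell from 857 ± 77.5 to 129.9 ± 9.54 CPM (-2.72) and from 684 ± 47.9 to 222 ± 11.9 CPM (-1.62), and *EGR1* by 1.74 and 1.20. *FOS* rose in MDA-MB-231, from 5.86 ± 0.925 to 30.4 ± 3.21 CPM (2.38, SE 0.14; edgeR, adjusted p = 1.35e-07), and stood at 39.8 ± 3.81 and 43.1 ± 6.22 CPM in 4T1 (0.12, adjusted p = 0.377). *CEBPD*, a C/EBP factor, was higher in both lines (1.12 in MDA-MB-231, adjusted p = 4.18e-05, and 0.73 in 4T1, adjusted p = 4.67e-05). What these changes contribute to *PTGS2* was not tested.

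**Figure D5:**
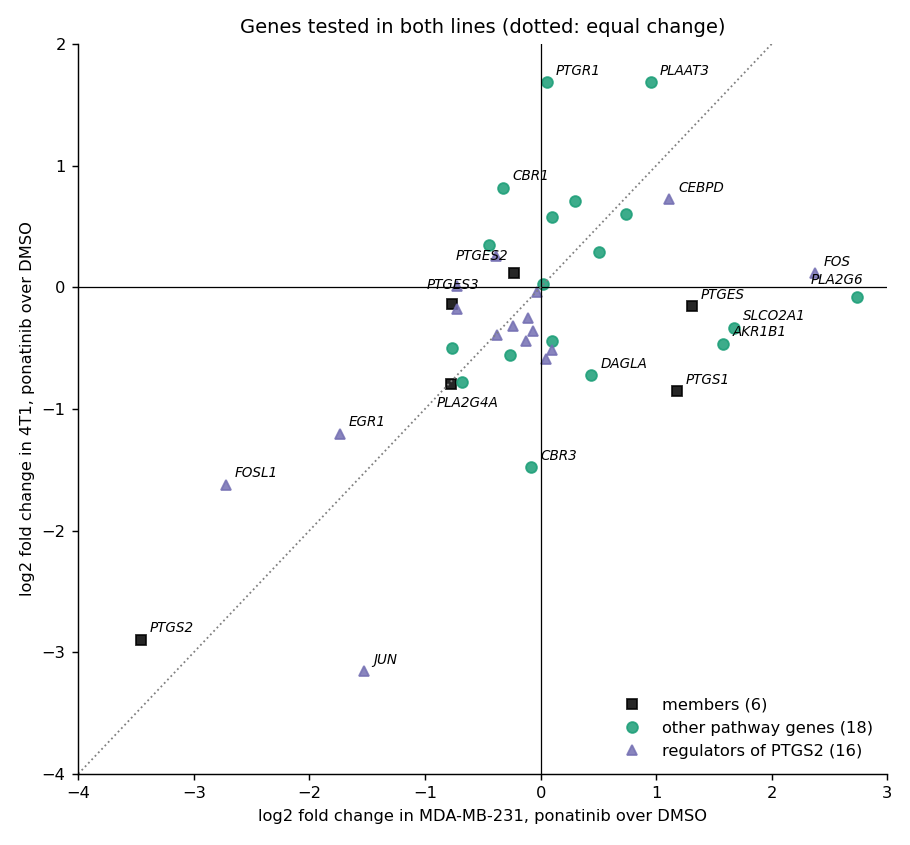
Log2 fold change of ponatinib over DMSO in MDA-MB-231 (x axis) and 4T1 (y axis) for the genes tested in both lines, with 6 members as squares, 18 other pathway genes as circles and 16 regulators of *PTGS2* as triangles. The dotted line marks equal change. *PTGS2* lies at the lower left with *FOSL1*, *JUN* and *EGR1*, while *PLA2G6*, *AKR1B1*, *PTGES* and *PTGS1* are on the right, higher in MDA-MB-231 and at or below 0 in 4T1.

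Overlapping genes limit how some of these counts can be read, because the strand setting is not given. *Ptgs2os*, a long noncoding RNA on the strand opposite to *Ptgs2*, held 128, 153 and 184 counts with DMSO and 62, 45 and 75 with ponatinib in 4T1, against 58969 and 8440 counts of *Ptgs2*. The human counterpart in position, *PACERR*, held 3 counts in all 6 MDA-MB-231 libraries. The counts of the antisense genes are thus a small share beside *PTGS2* in both lines, whereas for *PTGER4* the antisense *TTC33* held about as many counts as the gene itself with DMSO and more with ponatinib.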

How the data were processed

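The 12 libraries form 4 groups of 3, assigned from the labels. The authors trimmed adapters and poly-N reads, aligned with HISAT2 to hg38 or GRCm39 and deposited HTSeq raw counts per gene, not normalized; versions, annotation and strand setting are not given in the sources used here. The authors tested with DESeq2. Names and coordinates came from GENCODE v44 (81.9% of 63677 human identifiers, 99.3% of counts) and vM39 (91.1% of 47729 mouse identifiers, 99.8% of counts), and promoters from RefSeq GRCh38.p14 (13 starts for the 9 human members, all matched by symbol) and the GRCm39 genome.

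Within each line, edgeR 4.0.16 (R 4.3.3) compared ponatinib and DMSO after filterByExpr and TMM by its quasi-likelihood test, adjusted by Benjamini-Hochberg, and SE is the fold change over the root of F. Lines were compared by the interaction of line and treatment over genes of one symbol, in a joint fit with TMM over the 12 libraries. A difference between the lines is therefore not the exact subtraction of the fold changes fitted in each line. The steps were tested on simulated data. Levels per kilobase used the union of exons. The members and lists were chosen with earlier results of these data known. Named genes are all members, up to 4 genes of each class and line with the largest called changes at 1 CPM or more, and the 5 nearest to *PTGS2* in pattern at 10 CPM or more; any other gene was chosen after its values were seen.

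Same-numbered libraries deviated together from their groups (correlations of 0.345, 0.111 and 0.133 for MDA-MB-231 and 0.213, 0.119 and 0.115 for 4T1). All were over 0.1, so the numbers were taken as pairs on these values alone. The main tests did not use these pairs. They entered only as the replicate block among the alternatives. No library copied another (chi-square per gene 2.93 to 16.4). Replicates 2 and 3 were the closest pair in every group, at 2.93 to 6.92, while pairs with replicate 1 lay at 8.91 to 16.4. Alternatives were DESeq2 1.42.0, its size factors, total counts, no filter, a minimum of 10 counts in each library, the replicate block, each replicate left out, and another gene length. One marker gene is not reported here.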

Additional observations from a re-analysis of the deposited data

Results flagged for a closer look

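The following members and genes named by the rule had ponatinib effects that differ between the lines. Values are log2 differences, 4T1 minus MDA-MB-231, from the joint fit of both lines. They can depart slightly from the subtraction of the fold changes fitted in each line. *PTGS1* is the member listed and differed by -2.11: each ponatinib library lay above each DMSO library in MDA-MB-231 and below in 4T1. This difference was not tested because the gene was chosen from the 4T1 contrast. The members not listed were likewise not tested. Their differences were 0.49 (SE 0.17) for *PTGS2*, -1.54 (SE 0.18) for *PTGES*, 0.56 (SE 0.11) for *PTGES3*, 0.28 (SE 0.18) for *PTGES2* and -0.10 (SE 0.22) for *PLA2G4A*. For the genes that are not members the interaction was tested in edgeR over 12489 genes, of which 41.9% were called. Lower in 4T1 were *PLA2G6* (-2.89, adjusted p = 9.18e-11), *FOS* (-2.33, adjusted p = 1.23e-08), *AKR1B1* (-2.12, adjusted p = 1.27e-10), *SLCO2A1* (-2.08, adjusted p = 4.71e-06), *JUN* (-1.70, adjusted p = 5.36e-10), *CBR3* (-1.47, adjusted p = 7.19e-05), *DAGLA* (-1.24, adjusted p = 7.08e-05), *ABCC4* (-0.61, adjusted p = 0.00639), *CEBPD* (-0.46, adjusted p = 0.0495) and *LTA4H* (-0.29, adjusted p = 0.0193). Higher in 4T1 were *PTGR1* (1.56, adjusted p = 7.14e-08), *CBR1* (1.07, adjusted p = 2.86e-05), *FOSL1* (1.03, adjusted p = 1.7e-06), *PTGFRN* (0.72, adjusted p = 0.00038) and *PLAAT3* (0.66, adjusted p = 0.00321). *JUN* and *FOSL1* fell and *PLAAT3* rose in both lines, so for these 3 the sizes differ and not the directions. *CEBPD* and *LTA4H* also rose in both lines, and their differences lost the call in 14 and 7 of 18 alternatives. Outside that rule, the difference was also called for *LPCAT3* (0.41, adjusted p = 0.0168) among the pathway genes, and among the regulators for *NFKB1* (0.66, adjusted p = 6.42e-05), *MAPK14* (0.57, adjusted p = 0.000444), *ELAVL1* (0.47, adjusted p = 0.00138), *ATF2* (-0.69, adjusted p = 0.000946) and *CREB1* (-0.71, adjusted p = 0.000239).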

How the results depend on the processing

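With at least 10 counts in every library, 1 member was called higher in MDA-MB-231, since *PTGS1* was no longer tested. With no filter, without DMSO replicate 1 and without ponatinib replicate 3, 3 members were called higher there. The added member was not tested in the main fit. The replicate block called *PTGES2* lower (-0.24) and called the difference between lines of *EGR1* (0.47, adjusted p = 0.00102) and that of *DAGLB* (0.34, adjusted p = 0.0122). Apart from *Ptges* in 4T1, it changed no other call of a named gene. *PTGES2* was also called with no filter (-0.26, adjusted p = 0.0132). Over 12 alternatives the log2 fold change of *PTGS2* lay between -3.64 and -3.33 (MDA-MB-231) or -2.98 and -2.78 (4T1), and each of the 6 members called in MDA-MB-231 was called wherever it was tested. The line difference of *CEBPD* lost its call in 14 of 18 alternatives and that of *LTA4H* in 7, while that of *EGR1* gained one in 9. No direction was reversed. The 4T1 members past the threshold are counted only to show the settings, since the genes were chosen from that contrast, and nothing is read from them: 3 lower (4 under the block, adding *Ptges*) and 0 higher (1, *Hpgd*, under total counts and under the minimum of 10 counts, and 0 to 1 when a library was left out, with 1 without ponatinib replicate 3). With the longest transcript as length, 11 of the levels per kilobase moved by more than 1 SD, among them *PTGES2* (56.7) and *Pla2g4a* (24.6). Depth limits *PTGS1*, *HPGD* and *PTGER2* in MDA-MB-231 and *Ptger4* in 4T1, with at most 30 counts per library.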
